A study of Mus musculus with 30 samples.

Results

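In mouse splenic B cells that lack or possess the transcription factor Irf4, 10 genes stood apart between the genotypes at every stage sampled: Crisp3, Kctd14, Gad1, Gadl1 and Taf15 were lower in mutant cells, and Hddc3, Adgrl2, Actn1, Alox5ap and Anxa2 were higher. They were selected on the measured KO minus WT differences, as genes called in one direction between mutant and wild-type cells in 5 comparisons, at days 0, 1 and 3 without the inducer and at day 3 with its low and its high dose. Of 12183 genes tested, 274 met that rule (2.25%), 148 of them higher and 126 lower in mutant cells, and the 10 described here are among the 16 whose smallest absolute log2 difference over the 5 comparisons was above 1. Because these differences chose the genes, they are given below as a description, with no test.

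Expression was measured on 30 Affymetrix mouse arrays, 3 for each of 10 groups, and each array held cells of an individual mouse. The mutant cells, called KO, were Irf4-/- B cells carrying an Irf4 gene that doxycycline (DOX) switches on. They were taken unstimulated at day 0, and after 1 or 3 days in culture with zero, low (16 ng/mL) or high (100 ng/mL) DOX. The wild-type cells, called WT, were Irf4+/+ and were taken at days 0, 1 and 3 with no DOX. All cells were mature resting B cells enriched from spleen of C57BL/6 mice with the B1-8i allele, and the day 1 and day 3 cultures of both genotypes received CD40L and the cytokines IL-2, IL-4 and IL-5. The labels name no promoter for the inducible Irf4 and do not say whether 1 mouse supplied KO cultures of several doses or days.

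Irf4 is a transcription factor of lymphocytes whose level steers stimulated B cells, with low levels linked to germinal centre fates and high levels to plasma cells. The known roles of the 10 genes differ. They include enzymes of small-molecule metabolism (Gad1, Gadl1, Hddc3), a helper protein of leukotriene synthesis (Alox5ap), proteins at the membrane and the actin skeleton (Anxa2, Actn1), an adhesion receptor (Adgrl2), a secreted protein (Crisp3), an RNA-binding protein (Taf15) and a member of the KCTD family (Kctd14).

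Several features of the arrays bear on these genes. One Irf4 probe set followed the induced gene: it read 147 to 281 in KO zero arrays other than 1, and 7820 to 8683 with low and 11816 to 12928 with high DOX at day 3, against 134 to 253 in WT arrays of all days. It disagreed with the labels on 2 day 1 arrays, since KO zero replicate 2 read 1726 and KO low replicate 2 read 190. The other Irf4 set read 1881 to 7004 in KO zero cells and 1733 to 9532 in WT cells, so neither set checks the genotype labels. Sex-linked transcripts marked KO replicates 1 and 2 as male in 7 of 7 groups and KO replicate 3 as female in 7 of 7, whereas all WT arrays read as female. Array weights were lowest on KO day 0 replicate 3 (0.254), KO zero day 3 replicate 3 (0.388) and KO day 0 replicate 2 (0.423). B cell markers were present throughout, with summed intensities of 87429 to 92197 in KO and 95355 to 99525 in WT cells at day 0.

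All 10 genes had KO arrays wholly outside the WT arrays in all 7 comparisons of KO with WT, the 5 of the rule and the low and high doses at day 1. Such separation in one direction in all 7 comparisons was seen for 3.18% of all tested genes, and in the 5 of the rule for 3.73%. For single comparisons with zero DOX, the share of tested genes without overlap was 36.1% at day 0, 66.1% at day 1 and 46.3% at day 3. With DOX the shares were 59.5% (low) and 56.7% (high) at day 1, and 47.2% (low) and 55.7% (high) at day 3. The shares called by limma with adjusted p under 0.05 at zero DOX were 31.5% at day 0 (13.1% higher, 18.4% lower in KO), 49.6% at day 1 (33.9% higher, 15.7% lower) and 34.9% at day 3 (19% higher, 15.8% lower). At day 3 they were 34.2% with low (18.9% higher, 15.3% lower) and 41.1% with high DOX (22.1% higher, 19% lower). At day 1 they were 45.8% with low (31.1% higher, 14.7% lower) and 39.3% with high DOX (29.6% higher, 9.76% lower). Nothing is read from these shares, since the rule used the zero DOX and day 3 comparisons and the day 1 doses share their WT arrays. Without both arrays that disagreed with their labels, the day 1 differences at zero DOX ran from -4.04 (Crisp3) to 2.43 (Alox5ap), and those that moved most were Hddc3 (1.17), Actn1 (1.19) and Anxa2 (1.02), against 1.41, 1.41 and 1.21 with them.

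Levels are intensities, and a log2 difference or fold is on the scale of log2(intensity + 16), which understates the fold of dim genes such as Crisp3. Arrays of whole cultures cannot tell fewer cells of a type from less RNA per cell. With 3 arrays against 3, an exact permutation test cannot go below p = 0.1, so tests of dose and time rest on limma fitted across all genes.

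**Figure D1:**
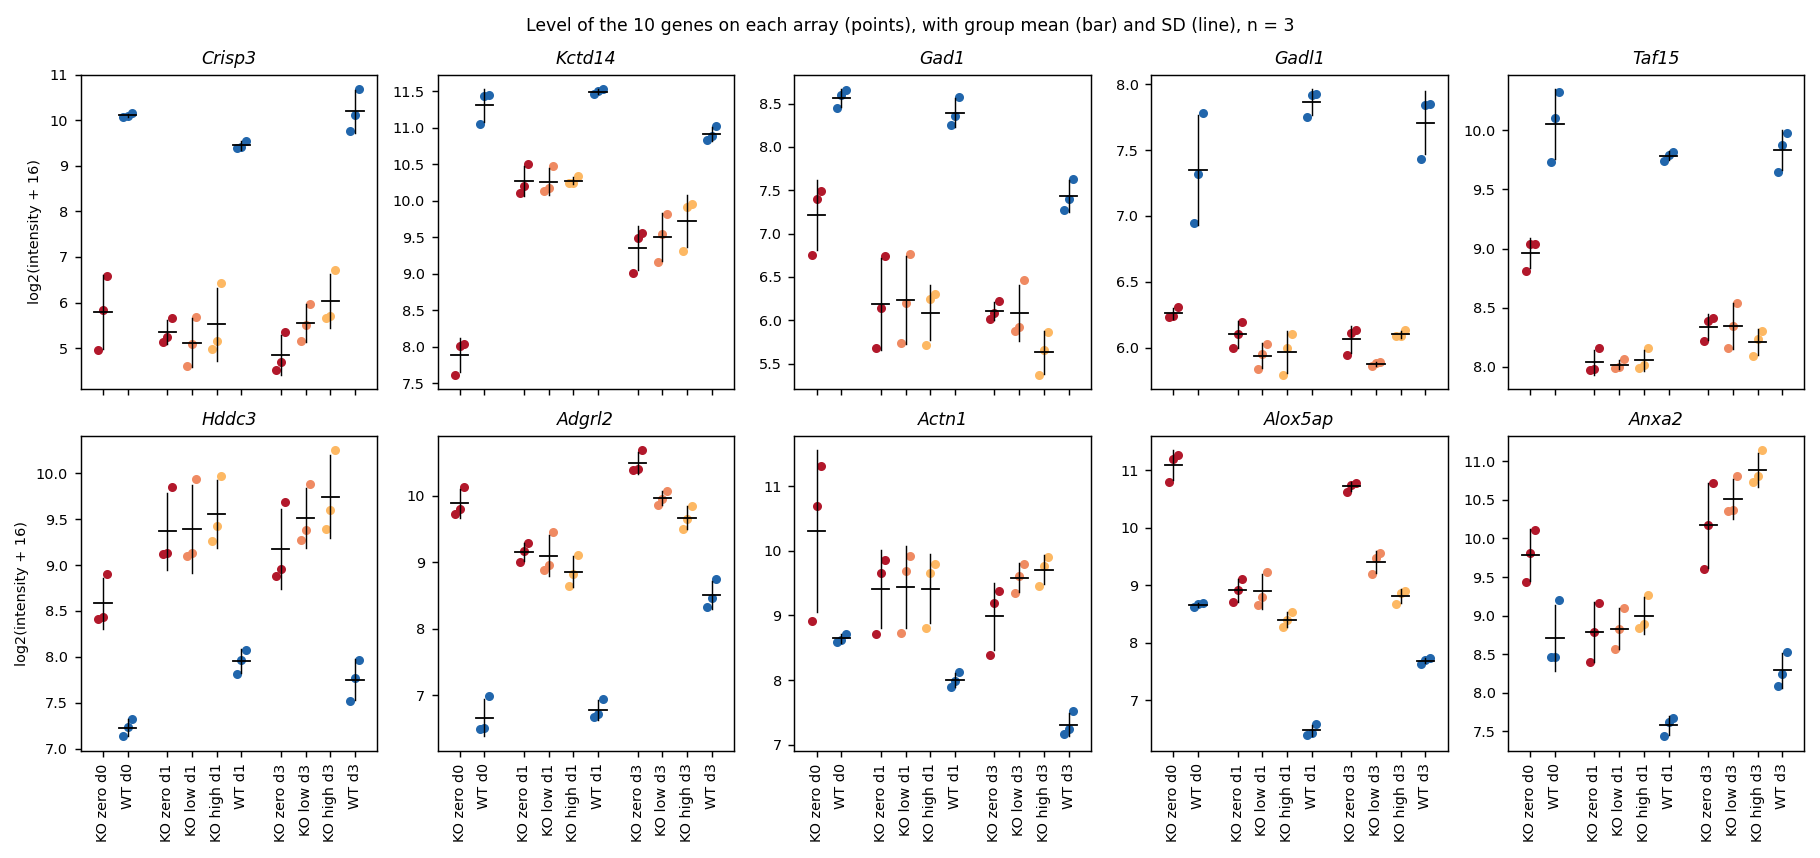
Level of each of the 10 genes as log2(intensity + 16) on every array (points), with the group mean (bar) and SD (line, n = 3), for KO groups by dose and the WT group at days 0, 1 and 3. In the upper panels all KO points lie below the WT points of their day, with a mean difference of -4.31 for Crisp3 at day 0, and in the lower panels all KO points lie above them.

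The promoters were searched for the composite motifs that Irf4 is known to bind. RefSeq's table for GRCm38.p6 held a promoter of 300 bases, 250 before and 50 after the start, for 8 of the 10 genes, and none was matched for Kctd14 and Alox5ap. Both strands were searched for the Ets-Irf element (GGAA, 2 free bases, GAAA), the interferon-type element (GAAA, 2 free bases, GAAA) and the AP-1-Irf elements (GAAA joined to TGANTCA, and TGANTCA, 4 free bases, GAAA). A promoter can hold more than 1 element, and elements can overlap. Of the 8 promoters only that of Taf15 had a match, to the interferon-type element on the reverse strand, at position 35, where 1 is the first transcribed base and -1 the base before it. Over all 32851 promoters in the table, 3.44% held that element, 2.72% the Ets-Irf element, 0.125% and 0.119% the AP-1-Irf elements and 6.12% any of them. A TATAA in the 60 bases before the start was present in Crisp3 at -31, in Adgrl2 at -51 and in Anxa2 at -17, against 5.57% of all promoters. Printed here are those of the genes with the largest day 0 difference among the lower and the higher genes with a promoter, Crisp3 (chr17:40242239-40242538, minus strand) and Adgrl2 (chr3:148954586-148954885, minus strand), and of Taf15 (chr11:83472858-83473157, plus strand). Capitals mark the TATAA or, in Taf15, the interferon-type match.
Crisp3: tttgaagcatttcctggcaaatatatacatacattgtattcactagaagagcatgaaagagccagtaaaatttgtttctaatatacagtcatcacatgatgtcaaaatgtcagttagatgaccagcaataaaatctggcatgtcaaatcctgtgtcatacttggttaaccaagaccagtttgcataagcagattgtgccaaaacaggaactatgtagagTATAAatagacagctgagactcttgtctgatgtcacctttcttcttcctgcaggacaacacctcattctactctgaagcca
Adgrl2: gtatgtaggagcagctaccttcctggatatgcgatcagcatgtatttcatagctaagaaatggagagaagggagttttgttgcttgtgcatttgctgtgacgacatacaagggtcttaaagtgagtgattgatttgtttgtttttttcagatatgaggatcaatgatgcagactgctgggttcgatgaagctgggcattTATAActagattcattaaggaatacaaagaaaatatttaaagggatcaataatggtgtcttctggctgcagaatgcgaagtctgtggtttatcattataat
Taf15: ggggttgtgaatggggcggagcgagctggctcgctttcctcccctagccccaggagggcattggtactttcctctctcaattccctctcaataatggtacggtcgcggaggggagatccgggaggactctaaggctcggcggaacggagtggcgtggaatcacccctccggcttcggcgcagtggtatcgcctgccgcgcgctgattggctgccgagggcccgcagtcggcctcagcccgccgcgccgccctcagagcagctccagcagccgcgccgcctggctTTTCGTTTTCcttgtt

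Crisp3, a cysteine-rich secretory protein that in the mouse is made by salivary gland and also by B cells, had the largest difference of the 10 genes. At day 0 it read 41.4, 15.3 and 79.7 in KO cells, against 1118, 1058 and 1077 in WT cells. At day 1 it read 19.3, 22.1 and 34.5 with zero, 17.8, 8.33 and 35.03 with low and 19.5, 15.5 and 70.2 with high DOX, against 651, 733 and 661 in WT. At day 3 it read 10.0, 6.81 and 24.8 with zero, 29.6, 19.4 and 47.0 with low and 36.1, 34.5 and 88.5 with high DOX, against 1095, 1634 and 857 in WT. All KO arrays thus lay under 100, in the dim part of the table whose median was 188.24, and all WT arrays lay well above it. The log2 difference was -4.31 at day 0 and -4.09 at day 1, and at day 3 it was -5.34 with zero, -4.65 with low and -4.17 with high DOX. In mean level, KO zero cells stood at 4.85 ± 0.44 and WT cells at 10.19 ± 0.46 at day 3 (log2, SD, n = 3 each), a 40.5-fold difference.

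Within KO cells all Crisp3 values were dim, from 6.81 to 88.5, with 0 of 21 KO arrays above the table median, so the gene entered the tests through its WT arrays. The high dose at day 3 stood 1.17 log2 units above zero DOX (SE 0.39, limma adjusted p = 0.0147), with all 3 high arrays above all 3 zero arrays. The low dose stood 0.69 above zero DOX and overlapped it (adjusted p = 0.174). With the KO replicate number as a block, both the high dose (adjusted p = 4.2e-05) and the low dose (adjusted p = 0.0054) were called. In the fit without the block, the high dose was no longer called without KO zero replicate 2 (1.00, adjusted p = 0.0683). The same held without KO high replicate 3 (0.83, adjusted p = 0.109).

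Kctd14 belongs to the KCTD proteins, which carry a BTB domain and often act as adaptors of ubiquitin ligases; its own role is little known. At day 0 it read 180, 242 and 247 in KO cells, against 2768, 2755 and 2106 in WT cells. At day 1 it read 1438, 1161 and 1089 with zero DOX, against 2938, 2878 and 2806 in WT. The mutant cells were thus 10.7-fold lower at rest and 2.34-fold lower after 1 day. Its day 3 intensities were 498, 737 and 706 with zero, 555, 885 and 733 with low and 621, 978 and 945 with high DOX, against 1884, 2073 and 1813 in WT. The log2 differences at day 3 were -1.57, -1.41 and -1.19 for zero, low and high DOX.

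Kctd14 changed with time in culture. In KO zero cells it rose by day 1 (log2 2.38, SE 0.18, adjusted p = 1.0e-11) and fell by day 3 (-0.92, adjusted p = 1.0e-04). In WT cells the day 1 minus day 0 difference was 0.19 and was not called (adjusted p = 0.331), and the level fell by day 3 (-0.58, adjusted p = 0.0059). With the probe set of largest variance in place of the set used, neither fall by day 3 was called (KO zero -0.92, adjusted p = 0.105, and WT -0.69, adjusted p = 0.187). The difference between the genotypes in this time course was not tested. All 4 Kctd14 probe sets had KO arrays below WT arrays in all 5 comparisons, from -1.05 to -3.70 at day 0. By the manufacturer's naming, 2 of these sets, the one with suffix s_at and the x_at set that stands for the gene, may also match other transcripts.

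Gad1 makes the transmitter GABA from glutamate, and Gadl1 is a related decarboxylase that acts on other acidic amino acids, giving beta-alanine and taurine precursors. Gad1 read 92.0, 153 and 164 in KO cells at day 0, against 387, 371 and 334 in WT cells. At day 3 Gad1 read 51.8, 58.7 and 48.8 with zero, 44.8, 42.9 and 72.1 with low and 25.4, 34.6 and 42.1 with high DOX, against 138, 182 and 152 in WT. At day 1 it read 35.3, 54.3 and 91.1 with zero DOX, against 367, 311 and 289 in WT. KO arrays lay below WT arrays on every day, and WT arrays were lowest at day 3. The KO minus WT log2 difference was -1.35 at day 0, -2.21 at day 1 with zero DOX, and -1.33, -1.34 and -1.80 at day 3 with zero, low and high DOX. Both Gad1 sets were dim. The set used had 0 of 21 KO arrays and 6 of 9 WT arrays above the table median and so was tested through WT. The other set read 104 to 184 on all 30 arrays, all below the table median, had the higher mean log2 level and was not tested, and its KO minus WT difference was -0.19 at day 0. With that set in its place, Gad1 day 1 minus day 0 turned from negative to positive, at 0.23 in KO zero and 0.27 in WT cells.

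Gadl1 was dim in KO cells at all times, between 39.6 and 63.4 on all 21 KO arrays, none above the table median, against 107 to 227 on the 9 WT arrays. Its log2 difference was -1.09 at day 0, -1.76 at day 1 with zero DOX and -1.64, -1.83 and -1.60 at day 3 with zero, low and high DOX. In WT cells Gadl1 rose by day 1 (0.52, adjusted p = 0.0011), although WT day 1 and day 0 arrays overlapped. In KO zero cells the same difference was -0.16 and was not called (adjusted p = 0.295; 0.0299 with the replicate block).

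Taf15 is an RNA-binding protein of the FET family that associates with the general transcription factor TFIID. It read 510, 434 and 510 in KO cells at day 0, against 1083, 834 and 1263 in WT cells. Day 1 intensities were 237, 236 and 270 with zero DOX, against 885, 840 and 872 in WT. At day 3 the KO arrays lay between 257 and 357 over all doses, against 787 to 990 in WT. The log2 difference was -1.09 at day 0, -1.74 at day 1 with zero DOX and -1.49, -1.48 and -1.62 at day 3 with zero, low and high DOX. No dose comparison called Taf15. Its other tested probe set differed by 0.14 at day 0 with overlapping arrays, by -0.90 at day 1 with zero DOX and by -0.30, -0.37 and -0.35 at day 3.

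Hddc3 is the animal counterpart of bacterial enzymes that cleave the alarmone ppGpp, and in human cells it removes a phosphate from NADPH. It read 325, 462 and 330 in KO cells at day 0, against 144, 134 and 124 in WT cells. Day 3 intensities of Hddc3 were 483, 806 and 457 with zero, 602, 930 and 651 with low and 656, 1203 and 759 with high DOX, against 201, 234 and 167 in WT. At day 1 Hddc3 read 540, 905 and 547 with zero DOX, against 210, 235 and 253 in WT. Replicate 2 was the highest KO array in each of these groups, and no KO array reached down to the WT arrays. The log2 difference was 1.36 at day 0, 1.41 at day 1 with zero DOX and 1.43, 1.76 and 2.00 at day 3 with zero, low and high DOX. A second set of Hddc3, too dim to be tested, differed by -0.47 at day 0 and by -0.12 to -0.17 at day 3.

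Adgrl2, or latrophilin 2, is an adhesion receptor coupled to G proteins that binds teneurins and FLRT proteins. It read 877, 1108 and 834 in KO cells at day 0, against 74.0, 74.9 and 111 in WT cells. At day 1 Adgrl2 read 561, 609 and 499 with zero DOX, against 89.6, 85.7 and 108 in WT. Day 3 intensities of Adgrl2 were 1342, 1632 and 1322 with zero, 973, 1066 and 918 with low and 712, 906 and 791 with high DOX, against 306, 338 and 413 in WT. The KO level stepped down with dose, and the WT level at day 3 was above its own day 0 level. The KO minus WT log2 difference was 3.23 at day 0 (9.37-fold), 2.38 at day 1 and 1.98, 1.45 and 1.16 at day 3 with zero, low and high DOX.

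Adgrl2 fell with DOX at day 3, by 0.82 on the log2 scale at the high dose against zero DOX (SE 0.16, adjusted p = 1.5e-04) and by 0.53 at the low dose (adjusted p = 0.0119). With the replicate block the adjusted p was 8.8e-08 at the high and 2.8e-05 at the low dose. Without KO zero replicate 2, in the fit without the block, the low dose was no longer called (-0.43, adjusted p = 0.0712). The second tested probe set of Adgrl2 gave -0.92 and -0.58 for the high and low dose. Between high and low DOX the difference was -0.30, with no overlap of arrays but not called (adjusted p = 0.264; 0.0084 with the replicate block). In both genotypes Adgrl2 rose between days 1 and 3, by 1.34 in KO zero cells (adjusted p = 1.6e-07) and by 1.73 in WT cells (adjusted p = 1.6e-09).

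Actn1, alpha-actinin 1, crosslinks actin filaments and links them to adhesion sites. At day 0 it read 1636, 2531 and 466 in KO cells, against 377, 370 and 405 in WT cells. At day 1 Actn1 read 793, 907 and 404 with zero DOX, against 238, 222 and 262 in WT. By day 3 the arrays read 566, 647 and 320 with zero, 764, 869 and 638 with low and 852, 937 and 689 with high DOX, against 136, 128 and 167 in WT. KO replicate 3, which read as female, was the lowest in each KO group and at day 0 lay close to the WT arrays. The log2 difference was 1.66 at day 0, 1.41 at day 1 with zero DOX and 1.67, 2.27 and 2.40 at day 3 with zero, low and high DOX. From KO replicate 3 alone it was 0.27 at day 0 and 1.08 at day 3 with zero DOX. The high minus zero DOX difference at day 3 was 0.72 and was not called (SE 0.42, adjusted p = 0.163; 0.0243 with the replicate block), although no arrays overlapped. A second tested Actn1 set overlapped between the genotypes at day 0 (0.12) and at day 3 with zero (0.07) and low DOX (-0.05), and did not overlap at day 1 (0.48) or at day 3 with high DOX (0.12).

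Alox5ap, the 5-lipoxygenase activating protein, hands arachidonic acid to 5-lipoxygenase at the first step of leukotriene synthesis. At day 0 it read 2453, 2328 and 1756 in KO cells, against 376, 391 and 397 in WT cells. At day 1 it read 533, 465 and 404 with zero, 388, 583 and 427 with low and 294, 354 and 321 with high DOX, against 70.6, 68.3 and 80.3 in WT. At day 3 it read 1563, 1745 and 1701 with zero, 568, 696 and 735 with low and 461, 390 and 452 with high DOX, against 183, 192 and 196 in WT. The 4 day 3 groups did not overlap and stood in the order of zero, low and high DOX, with WT lowest. The KO minus WT log2 difference at day 3 was 3.03, 1.72 and 1.12 in that order of doses (8.16-fold, 3.29-fold and 2.18-fold).

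Among the 10 genes Alox5ap alone passed the test in 4 of the 5 dose comparisons in the fit without the replicate block. With the block it was Adgrl2 that passed in 4 of the 5, including high minus zero DOX at day 1 (adjusted p = 0.0240). The Alox5ap values that follow are from the fit without the block unless stated. At day 3 high minus zero DOX was -1.91 (SE 0.13, adjusted p = 2.4e-11), low minus zero was -1.31 (adjusted p = 5.5e-08) and high minus low was -0.59 (adjusted p = 0.0029). At day 1 high minus zero DOX was -0.51 (adjusted p = 0.0343), and low and zero DOX differed by -0.02, which was not called. Both arrays that disagreed with their labels fall in that low against zero comparison. Without them the KO minus WT log2 difference at day 1 was 2.43 with zero and 2.25 with low DOX, against 2.43 and 2.42 with them. The day 1 call was lost with the replicate block (adjusted p = 0.0611) and on leaving out any of 4 of the 6 arrays (adjusted p up to 0.240), and it held without both arrays that disagreed with their labels (-0.51, adjusted p = 0.0460). In both genotypes the level fell by day 1, by 2.18 on the log2 scale in KO zero and in WT cells, and rose by day 3, by 1.81 in KO zero and 1.21 in WT cells.

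Transcripts of myeloid cells, which make Alox5ap, moved beside it. Of 16 myeloid markers measured, 12 were higher in KO than WT at day 0, 15 at day 1 and 13 at day 3 with zero DOX, and none lower, where 13.1%, 33.9% and 19% of all tested genes were higher. Of 8 NK cell markers, 6, 6 and 8 were higher on these days and none lower, with sums at day 3 of 9263 to 16698 in KO zero and 2431 to 3555 in WT cells. Of 7 T cell markers, 4, 6 and 2 were higher, and 1 was lower at day 3. The 16 myeloid markers summed at day 0 to 24107 to 39093 in KO and 17873 to 19055 in WT cells. At day 3 they summed to 25247 to 35250 with zero and 18030 to 22460 with low DOX. With high DOX they summed to 12547 to 15386, against 13330 to 13466 in WT. The day 3 myeloid sums of KO cells with high DOX and of WT cells overlapped. In the same groups Alox5ap read 390 to 461 in KO and 183 to 196 in WT. Between high and zero DOX at day 3, 12 of the 16 markers fell (median -1.09, against 0.0038 over all genes), as did 8 of 8 markers of NK cells. Of all tested genes, 24.2% were lower there. Neutrophil markers summed to 3510 to 5611 with zero and 2498 to 2598 with high DOX. For platelet markers the sums were 3424.5 to 4542 and 1636 to 1706, in that order. For T cell markers they were 2272 to 2321 and 2506 to 2617, and for dendritic cell markers 5397 to 6120 and 5733 to 7074. At day 1 the myeloid sums were 15408 to 18447 with zero, 15173 to 18558 with low and 11292 to 14322 with high DOX, against 7278 to 7676 in WT. No marker was listed at 0, the lowest intensity in the table being 1. The part of such cells in the differences of Alox5ap and of the other genes was not tested.

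Anxa2 is an annexin, a protein that binds membrane phospholipids with calcium and pairs with S100a10. At day 0 it read 881, 1089 and 678 in KO cells, against 337, 336 and 574 in WT cells. At day 1 Anxa2 read 428, 560 and 320 with zero DOX, against 181, 157 and 188.38 in WT. By day 3 Anxa2 read 1143, 1670 and 765 with zero, 1310, 1784 and 1296 with low and 1682, 2244 and 1776 with high DOX, against 288, 257 and 354 in WT. The groups came closest at day 0, where KO replicate 3 read 678 and WT replicate 3 read 574. The log2 difference was 1.08 at day 0, 1.21 at day 1 with zero DOX and 1.88, 2.22 and 2.603 at day 3 with zero, low and high DOX. In group means Anxa2 stood farther from WT at each higher dose of day 3, while Alox5ap and Adgrl2 stood closer.

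Within KO cells Anxa2 rose with the high dose at day 3 (0.72, SE 0.25, adjusted p = 0.0186, and 4.7e-05 with the replicate block). Its second tested probe set gave 0.76. The summed myeloid markers at this dose were 12547 to 15386 with high and 25247 to 35250 with zero DOX, and their part in the Anxa2 result was not tested. Without KO zero replicate 3 or KO high replicate 2, the rise was no longer called (0.44, adjusted p = 0.154, and 0.60, adjusted p = 0.0865). Those fits had no block, so leaving out 1 array also unbalanced the replicate numbers. The low minus zero difference was 0.35 and was not called (adjusted p = 0.304; 0.0208 with the replicate block).

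**Figure D2:**
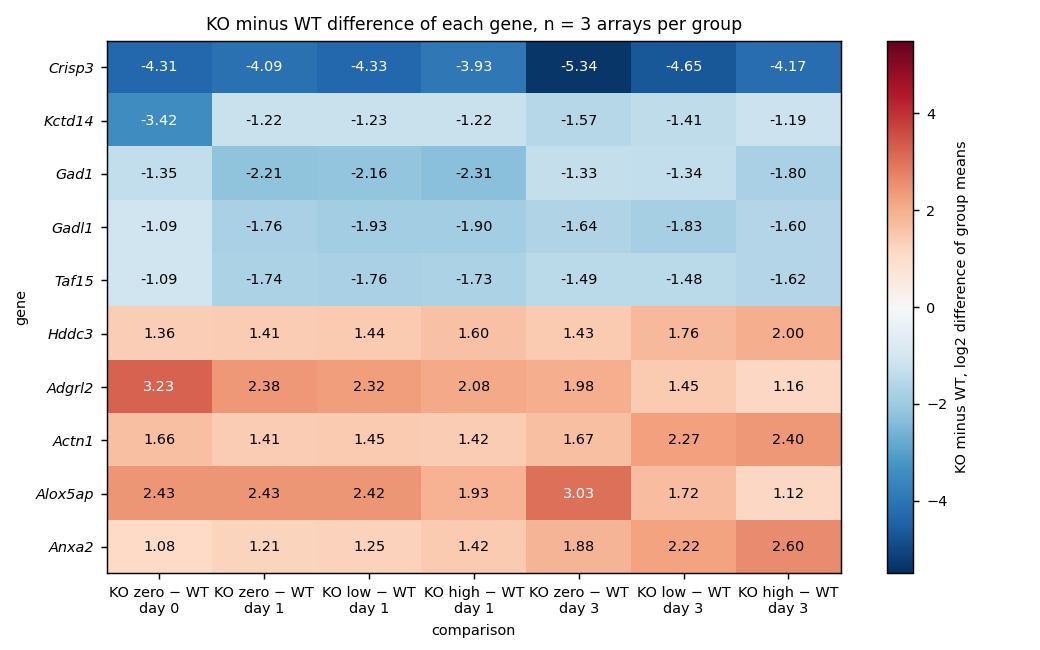
KO minus WT log2 difference of group means (colour and number, n = 3 arrays per group) for each gene (rows) in the 7 comparisons of KO with WT (columns). The 5 upper genes are negative and the 5 lower genes positive in every column, with Crisp3 between -3.93 and -5.34, and at day 3 Alox5ap and Adgrl2 shrink and Anxa2 and Actn1 grow from zero to high DOX.

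The rule did not use the dose comparisons as such. At day 3, however, high or low minus zero DOX is the difference of 2 KO minus WT comparisons that chose the genes, so these tests are not independent of the choice. The time comparisons likewise share arrays with it. At day 3 high against zero DOX called 48.6% of all tested genes, 24.4% higher and 24.2% lower. Of the 10 genes, 2 rose (Crisp3 and Anxa2), 2 fell (Adgrl2 and Alox5ap) and 6 did not pass the test, a share near the background. Crisp3, Gad1 and Gadl1, dim in KO cells, are counted among the 10. With the replicate block 4 rose and 3 fell (background 52.8%), as Hddc3 (0.57, adjusted p = 7.2e-06) and Actn1 (0.72, 0.0243) were called higher too and Gad1 (-0.48, adjusted p = 0.0234) lower. Low against zero DOX called 35.8% of genes (17.6% higher, 18.2% lower) and 2 of the 10, both lower, and with the block 3 rose and 3 fell (background 41.5%). High against low DOX called 12.8% of genes (6.69% higher, 6.09% lower) and 1 of the 10, Alox5ap, and with the block 3 rose and 2 fell (background 17.2%). At day 1 high against zero DOX called 2.75% of genes (1.26% higher, 1.49% lower) and again Alox5ap, which the block exchanged for Adgrl2 (-0.30, adjusted p = 0.0240; background 4.83%). Low against zero DOX at day 1 called none of the 12183 genes by limma with or without the block, and none of the 10. Both arrays that disagreed with their labels fall in this comparison, 1 in each group, so it cannot show that the low dose had no effect. The size of the high against zero DOX response differed between days 3 and 1 for 26.2% of all tested genes (12.4% higher, 13.8% lower), and for 1 of the 10, Alox5ap, which was lower (-1.40, SE 0.18, adjusted p = 4.3e-06).

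The intervals of the fit without the replicate block show how large a response missed in that fit could be. They include the spread between KO replicate numbers. With the block the SE went from 0.26 to 0.07 for Hddc3, from 0.25 to 0.17 for Gad1 and from 0.42 to 0.25 for Actn1. These genes were then called. For Kctd14 the SE was 0.18 in both fits, and it was called in neither. For high minus zero DOX at day 3, the 95% interval was -0.24 to 0.32 for Gadl1 and -0.37 to 0.11 for Taf15. It was 0.01 to 0.74 for Kctd14, -0.99 to 0.04 for Gad1, 0.02 to 1.12 for Hddc3 and -0.15 to 1.60 for Actn1. Plasma cell markers rose beside these values in 11 of 11 cases at the high dose (median 2.99), and B cell markers fell in 11 of 11 (median -0.76). Of all tested genes, 24.4% were higher and 24.2% lower there.

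**Figure D3:**
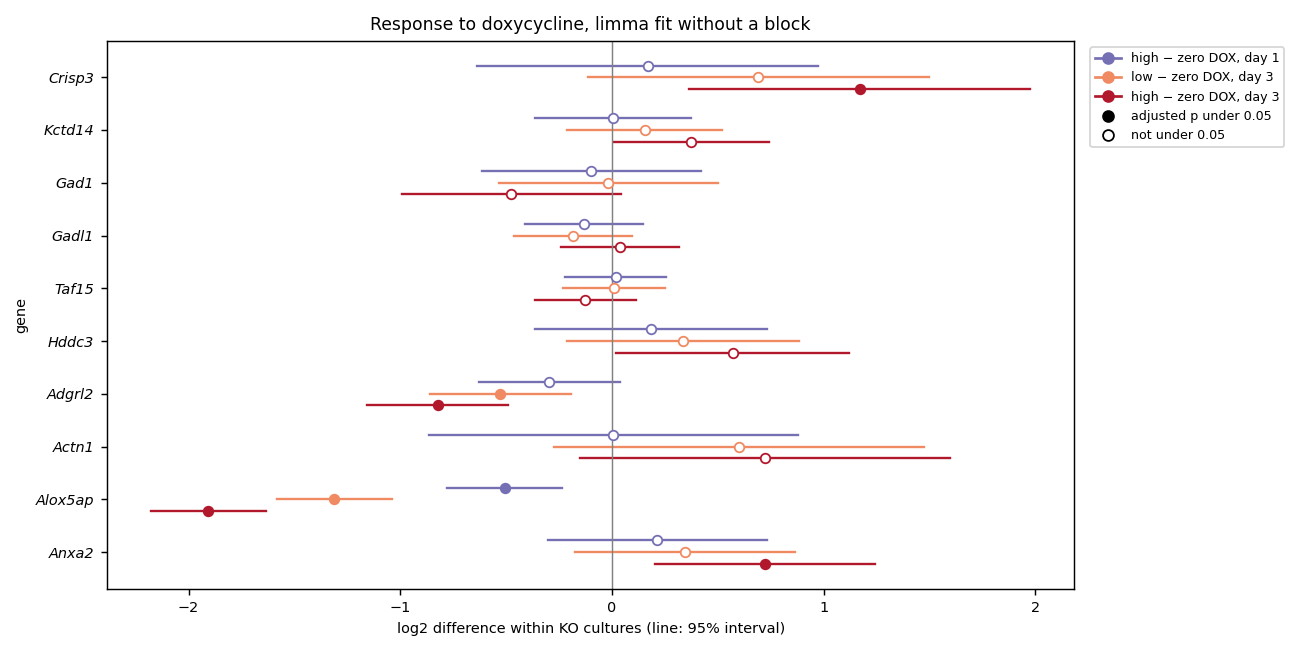
Log2 difference between DOX doses within KO cultures (points, filled where the limma adjusted p was under 0.05) with its 95% interval (line), for high minus zero DOX at day 1 and low and high minus zero DOX at day 3. Alox5ap (-1.91) and Adgrl2 (-0.82) lie left of 0 and Crisp3 (1.17) and Anxa2 (0.72) right of 0 at the high dose of day 3, while the intervals of Gadl1 and Taf15 span 0 at all 3 settings.

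Time in culture moved most genes. In KO zero cells day 1 against day 0 called 69.8% of all genes (39.8% higher, 30.1% lower) and 7 of the 10: Kctd14 and Hddc3 (0.78) rose, and Gad1 (-1.03), Taf15 (-0.92), Adgrl2 (-0.73), Alox5ap (-2.18) and Anxa2 (adjusted p = 9.7e-04) fell. With the replicate block 2 rose and 8 fell (background 71.9%). Without both arrays that disagreed with their labels, Hddc3 was no longer called (0.54, adjusted p = 0.0618) and Actn1 was (-1.12, adjusted p = 0.0381). In WT cells day 1 against day 0 called 81.5% of genes (33.9% higher, 47.6% lower) and 5 of the 10, Gadl1 and Hddc3 (0.73) rising and Taf15 (-0.27), Alox5ap and Anxa2 (-1.13) falling. The Taf15 arrays overlapped there, and its call was lost with each array centred on its median (-0.13, adjusted p = 0.305), with quantile normalization (adjusted p = 0.121), with only the groups compared (adjusted p = 0.0829) and without any 1 of 5 of the 6 arrays (adjusted p from 0.0520 to 0.288, the highest without WT day 0 replicate 3). Day 3 against day 1 called 52.6% of genes in KO zero cells (25.9% higher, 26.7% lower), and there Taf15 (0.30), Adgrl2, Alox5ap and Anxa2 (1.38) rose and Kctd14 fell. The Taf15 call was lost without both arrays (0.27, adjusted p = 0.104). The same step in WT cells called 69.4% of genes (43.3% higher, 26.2% lower), with Adgrl2, Alox5ap and Anxa2 (0.71) rising and Kctd14 and Gad1 (-0.96) falling. The WT call of Anxa2 was lost without WT day 1 replicate 2 (0.64, adjusted p = 0.0512) or WT day 3 replicate 3 (0.59, adjusted p = 0.0670). Crisp3 and Actn1 were not called in WT cells in the fit over all 30 arrays, whose spread includes the KO arrays. With only the groups compared, limma called both. Crisp3 fell by day 1 (-0.66, adjusted p = 9.7e-06) and rose by day 3 (0.75, adjusted p = 0.0076). Actn1 fell at both steps (-0.64, adjusted p = 2.9e-05, and -0.69, adjusted p = 2.1e-04).

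KO replicates carried a number-dependent pattern that differed widely between the 10 genes. Crisp3 was highest in replicate 3 in 7 of 7 KO groups, with a spread of 1.04 log2 units between the mean deviations of the replicate numbers. Actn1 was highest in replicate 2 and lowest in replicate 3 in 7 of 7 (spread 1.08), and Hddc3 (0.69), Adgrl2 (0.35) and Anxa2 (0.62) were highest in replicate 2 in 7 of 7. Gad1 was highest in replicate 3 in 6 of 7 (0.62). Kctd14 (0.23), Alox5ap (0.13), Gadl1 (0.11) and Taf15 (0.06) had smaller spreads. Over all tested genes the median spread was 0.10 and the 95th percentile 0.36. Replicates 1 and 2 read as male and replicate 3 as female, so what sets replicate 3 apart cannot be told from sex here. Between replicates 1 and 2, which read as the same sex, the mean deviation went from -0.24 to 0.45 for Hddc3. It went from -0.05 to 0.34 for Anxa2 and from 0.03 to -0.01 for Taf15. From the replicate 3 array alone, minus the mean of the WT arrays, the smallest of the 70 differences was 0.27, for Actn1 at day 0. Their direction was fixed by the separation of KO from WT arrays, and the part of sex in the differences was not tested.

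**Figure D4:**
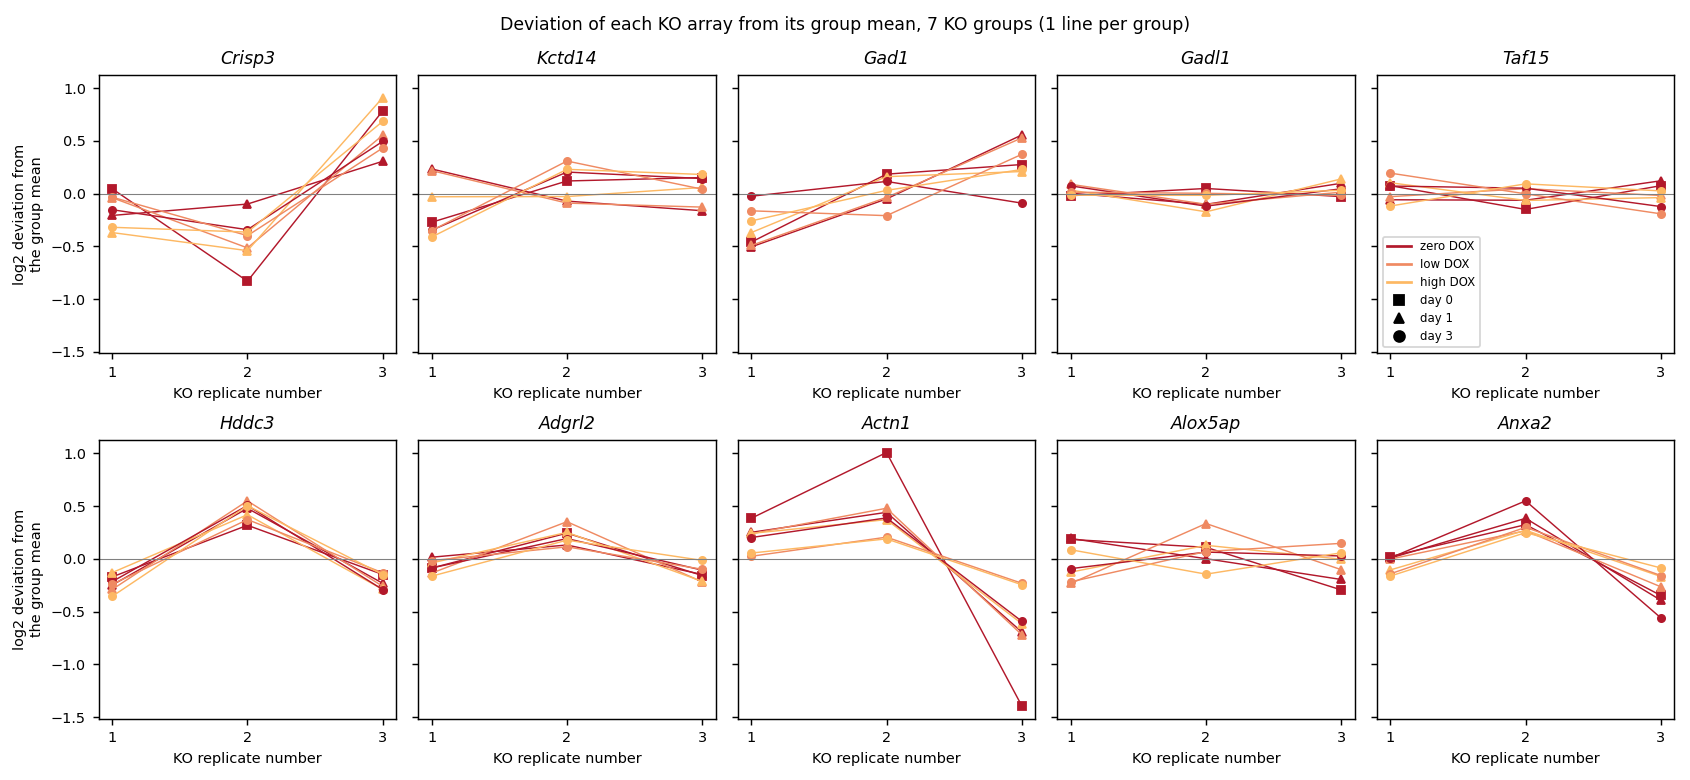
Deviation of each KO array from its group mean (log2, vertical) by replicate number (horizontal), with 1 line for each of the 7 KO groups, coloured by dose and marked by day. The lines of Crisp3, Hddc3 and Actn1 run in parallel, with replicate 3 of Crisp3 highest and replicate 3 of Actn1 lowest in 7 of 7 groups, while those of Taf15 (spread 0.06) stay near 0.

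The 10 genes had 23 probe sets of their own, 17 of them bright enough to be tested. In 15 of the 17, KO arrays lay outside WT arrays in all 5 comparisons of the rule. This count includes the 10 sets that stand for the genes, which these comparisons chose, so it is no support for them. Among the further tested sets, those of Kctd14, Adgrl2 and Anxa2 separated in all 5, where 3.73% of all tested genes did so in 1 direction. Nothing is read from that share, since these sets measure the chosen genes on the same arrays. The 2 of the 17 that did not separate in all 5 were the second sets of Taf15 and Actn1 described above. For Adgrl2 and Anxa2, both tested sets separated the genotypes in the same direction. For Crisp3 and Alox5ap the array holds a single set each, so their values could not be set against another.

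**Figure D5:**
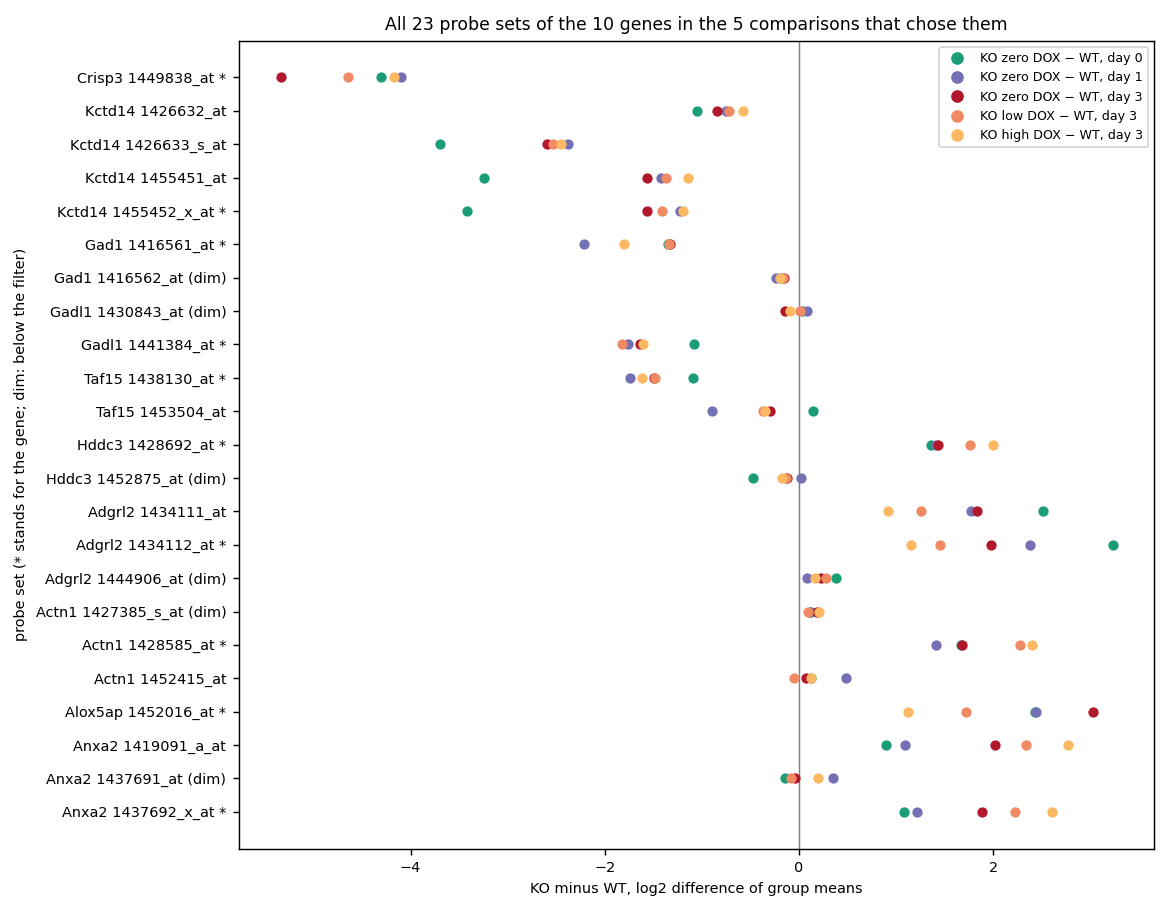
KO minus WT log2 difference of group means (horizontal) of all 23 probe sets of the 10 genes (vertical) in the 5 comparisons of the rule (colours). An asterisk marks the set that stands for its gene, and dim marks sets below the filter, which stay within 0.5 log2 units of 0, as do 4 of 5 values of the second Taf15 set and all 5 of the second Actn1 set.

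By position, the genes lie on 8 chromosomes, with Kctd14 and Hddc3 on chromosome 7 and Gadl1 and Anxa2 on chromosome 9. None lies on chromosome 13, which carries Irf4 and where 11 of 451 tested genes met the rule (2.44%). Of the 100 tested genes nearest to the 10 (5 on each side), 5 met the rule (5%, against 2.25% of all tested genes). They were Gabbr1 near Crisp3, Ints4 next to Kctd14, Tlk1 near Gad1, and Gpd1l and Azi2 near Gadl1. Ints4, a subunit of the Integrator complex, differed by -1.40 at day 0 and by -0.59 at day 1 with zero DOX, where Kctd14 differed by -3.42 and -1.22.

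Over the 10 group means, the genes with the most similar profile were sought for each gene, which is a description over groups that share 1 platform and a genotype difference. Kctd14 was most like Ints4 (r = 0.990, n = 10 groups), and Alox5ap was most like Fcer1g, one of the myeloid markers (0.993), Cd164 (0.978) and Fes (0.965). Crisp3 (0.989) and Gadl1 (0.968) were most like Xist, which the female WT arrays and the female KO replicate carry. Taf15 was most like Map7 (0.964), Gad1 like Mir1931 (0.957), Hddc3 like Atox1 (0.965), Adgrl2 like Selenbp1 (0.935), Actn1 like Itgav (0.948) and Anxa2 like Osbpl3 (0.970). Among themselves, Hddc3 and Taf15 were the most opposed pair (r = -0.973), and Alox5ap and Kctd14 stood at -0.882.

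Other genes of the same families were set beside the 10. In the comparison of high with zero DOX at day 3, 24.4% of all tested genes were higher and 24.2% lower, and counts near these shares are no result about a family. Of 10 other leukotriene pathway genes tested, high against zero DOX at day 3 raised 1 and lowered 2 (median -0.09), namely Ggt5 (0.36), Pla2g4a (-0.79), the phospholipase that frees arachidonic acid, and Cotl1 (-0.62), which binds 5-lipoxygenase. Alox5 itself differed by 0.14 and was not called, and between KO zero and WT cells at day 3 by -0.0046. The leukotriene A4 hydrolase Lta4h was lower in KO than WT at day 3 at zero (-0.32), low (-0.34) and high DOX (-0.38).

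Of 9 other annexin and S100 genes tested, 6 were higher and none lower in KO zero than WT cells at day 3 (median 0.39). Among them were S100a6 (2.11), Anxa1 (1.83) and Anxa4 (1.25). In that comparison 19% of all tested genes were higher and 15.8% lower. With high against zero DOX, 4 rose (Anxa4 0.74, Anxa5 0.34, Anxa7 0.14 and S100a10 0.32) and 2 fell, Anxa1 (-1.67) and S100a6 (-1.51). S100a10, the partner of Anxa2, was lower in KO than WT at day 0 (-0.74), differed by 0.0046 at day 3 with zero DOX and was higher with low (0.45) and high DOX (0.33).

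Of 16 other actin and adhesion genes, high against zero DOX raised 2, vinculin (Vcl, 2.43, adjusted p = 2.0e-15) and integrin beta 1 (Itgb1, 0.85), and lowered 7, including Itgb3 (-0.97) and Zyx (-0.80), with a median of -0.14. Itgb1 was higher in KO than WT at day 0 (1.33) and at all 3 doses of day 3 (0.76, 1.497 and 1.605 from zero to high), and Actn4, the other non-muscle alpha-actinin, differed by -0.01 between high and zero DOX. Of 6 other adhesion receptors and ligands, Adgrl1, the nearest relative of Adgrl2 tested, rose (0.33) and Adgre1, also a myeloid marker, fell (-1.11) along with Tenm4 (-0.27).

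Among 6 other genes of GABA and taurine metabolism, high DOX lowered Slc6a13 (-1.11), a GABA transporter, and Gabbr1 (-0.50), a GABA receptor subunit, and raised none (median 0.03). Of 13 other FET and TFIID genes, 5 rose, led by Taf5 (0.81), and 5 fell, led by Tnpo1 (-0.35), the nuclear import receptor of FET proteins. Of 12 other KCTD genes 3 rose, led by Kctd6 (0.49), and 4 fell, led by Kctd13 (-0.48). Of 6 other phosphohydrolases 3 rose, Hddc2 (0.26) among them, and 3 fell, led by Pde8a (-0.68). Of 3 other CRISP family genes Glipr1 (-1.003) and Glipr2 (-0.58) fell. The median over all tested genes in this comparison was 0.0038.

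Anxa2 (1.08), Gadl1 (1.09) and Taf15 (1.09) had the smallest of their 5 absolute differences nearest to 1 among the 10 genes, while Id2 (0.998), Lgals3 (0.995) and Cd3g (0.972) lay just outside. Above 1 but not among the 10 were Xaf1 (3.59), Tmem87a (1.89), Tbx21 (1.70), Maf (1.61), Ifitm3 (1.32) and Gm31718 (1.15), all higher in KO cells. Nearest to the rule itself without meeting it were Irf7 and Etfbkmt, not called at day 0 (adjusted p = 0.0511 and 0.0517), and Prkaa1, not called with low DOX at day 3 (adjusted p = 0.0512).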

How the data were processed

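The authors deposited 1 linear signal intensity per probe set and array, which the series' design text says came from D-Chip's perfect-match model. MAS5 is listed as a tool in the submitters' processing notes without a stated role. Of 45101 probe sets, 64 were controls, 34945 carried 1 gene symbol, 932 several and 9160 none. Sets with at least 3 of 30 arrays above the table median were tested (26095), and the tested set of highest mean log2 level stood for its gene. Values were taken as log2(intensity + 16), with no further normalization, and fitted in limma 3.58.1 (R 4.3.3) with 1 mean per group over all 30 arrays (20 residual degrees of freedom, median residual SD 0.0988). P-values were Benjamini-Hochberg adjusted over 12183 genes. The fit was tested on simulated data with independent arrays and, for each gene, the same spread in all groups. That test does not cover shared deviations of same-numbered KO arrays or a spread that differs between genotypes. Array medians ranged from 171 to 199.7.

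The 10 genes, the family and marker lists and the rules for naming other genes were chosen with earlier results of these data known: each member, its 3 genes of most similar profile, the nearest genes inside and outside the rule, and up to 4 called genes of a list. Others are named for their role, after their values were seen. Alternatives covered the pseudocount, filter, scaling, choice of set, block, sex, array weights and left-out arrays.

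Same-numbered KO arrays deviated together in 63 of 63 pairs (r from 0.30 to 0.86), against 3 of 126 differently numbered pairs over 0.1, so the number was taken to pair KO arrays, from the data only. For WT, 5 of 9 same-numbered pairs exceeded 0.1, and no pairing was taken.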

Additional observations from a re-analysis of the deposited data

Results flagged for a closer look

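The response of Alox5ap to high against zero DOX was larger at day 3 than at day 1, and the difference itself passed the test. At day 3 it read 461, 390 and 452 with high and 1563, 1745 and 1701 with zero DOX. At day 1 it read 294, 354 and 321 with high and 533, 465 and 404 with zero DOX. The day 3 response minus the day 1 response was -1.40 on the log2 scale (SE 0.18, limma adjusted p = 4.3e-06), where 26.2% of all tested genes were called. With the replicate block Alox5ap was called as well (adjusted p = 8.7e-05), and 3 of the 10 genes were called higher and 2 lower (background 31.3%). Without both arrays that disagreed with their labels it was -1.40, and over single arrays left out it lay between -1.50 and -1.30. The summed myeloid markers at day 3 were 12547 to 15386 with high and 25247 to 35250 with zero DOX, and at day 1 they were 11292 to 14322 with high and 15408 to 18447 with zero DOX. Their part in the result was not tested.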

How the results depend on the processing

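With each of 24 arrays left out in turn, all 10 genes met the rule. The rule chose them on these same arrays, so this is no support for them. No filter left 9, fitting only the groups compared left 9, a filter of 15 arrays left 7 because Crisp3, Gad1 and Gadl1 were no longer tested, and leaving out the male KO arrays, chosen after seeing the data, left 8. Counts of the 10 genes called moved more. A replicate block within genotype, chosen after seeing the data, gave 7 calls for high against zero DOX at day 3 (4 without it), 6 for low against zero (2), 5 for high against low (1), 5 for the dose effect at day 3 minus day 1 (1) and 8 for WT day 1 against day 0 (5). For WT, where no pairing was taken, that fit also left out the KO arrays. Fitting only the groups compared, with no block, also called Crisp3 and Actn1 in WT day 1 against day 0 (limma adjusted p = 9.7e-06 and 2.9e-05). A sex term gave 7 for high against zero, 4 for low against zero and 2 for the dose effect by day. Array weights gave 2 for high against low and 3 for the dose effect by day. Fitting only the groups compared gave 2 for high against low and 0 for high against zero at day 1. The count of 5 neighbouring genes became 2 with the sex term, 9 with array weights, 2 without both arrays that disagreed with their labels and 3 without the male KO arrays. With 1 array left out, high against zero DOX ran from 3 to 6 at day 3 and from 0 to 1 at day 1, low against zero at day 3 from 1 to 2, the dose effect by day from 1 to 2 and the neighbours from 2 to 7. With no filter, Gad1 day 1 against day 0 turned to 0.27 in WT and 0.23 in KO zero cells, because its second set, of higher mean log2 level over all arrays, then stood for it. A block shared by both genotypes moved none of these counts by over 1.5 times. Beyond these, 1827 dose and time values of single genes kept their call and direction, 68 gained and 33 lost a call. Over all genes, high against zero DOX at day 1 called 335, against 208 without both arrays that disagreed with their labels, 511 with the shared block, 566 with the sex term, 687 with array weights, 3 with only the groups compared and 87 to 349 with 1 array left out. Other causes were not tested. Signals of arrays carry no counting depth, and Crisp3 in KO cells lies in the dim range, so its size depends on the pseudocount: KO zero minus WT at day 3 was -6.47 with a pseudocount of 1 and -3.98 with 64, against -5.34 with 16.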
